A study of Mus musculus with 6 samples.

Results

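The calcium/calmodulin-dependent kinase genes were followed in RNA-seq of cultured cortical neurons from WT and Fmr1-KO mice. The group held 10 genes picked by name, Camk2a, Camk2b, Camk2d, Camk2g, Camk4, Camkv, Camk1, Camk1d, Camkk1 and Camkk2, out of 55367 gene names in the count table. All 10 were found, and all 10 had enough reads to enter the test with 16976 genes in total. The cells came from the cerebral cortex of C57BL/6J pups at postnatal day 1 and were grown for 2 days in vitro, 3 libraries from WT and 3 from Fmr1-KO animals. Fmr1 encodes FMRP, the RNA-binding protein whose loss causes fragile X syndrome. The study's methods state that astrocytes and myelin were depleted with antibodies. The labels give no knockout allele, litter, sex or preparation day, so P values measure only the spread between these libraries.

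Calmodulin is the small protein that reports a rise of calcium inside a cell, and the active kinases of this family are switched on when calcium-loaded calmodulin binds them. CaMKII, a ring of many subunits drawn from the alpha, beta, delta and gamma isozymes, is among the most abundant proteins of excitatory synapses and keeps part of its activity after calcium has gone, a property tied to synaptic plasticity and learning. CaMKI and CaMKIV work in a cascade instead: the upstream kinases CaMKK1 and CaMKK2 phosphorylate them, CaMKI acts on axon and dendrite growth, and CaMKIV acts in the nucleus on the transcription factor CREB.

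Total counts ran from 30348556 to 35126207 per library, and the 10 kinase genes together took 23258 to 37993 of them. Fmr1 itself was at 118, 112 and 110 CPM (counts scaled to library size after TMM normalization) in WT and at 54.2, 61.4 and 56.7 CPM in Fmr1-KO, with a log2 fold-change of -0.98 and an SE of 0.04 (edgeR adjusted P 2.25e-13), or 50.6% of WT. The direction is that of the labels, but the count covers all exons of the gene and the allele is not given, so it does not show whether the gene was fully lost. Xist is expressed from the inactive X chromosome of females. It was at 298 to 312 CPM in WT and at 825 to 1017 CPM in Fmr1-KO. The Y-linked gene Eif2s3y was at 37.6 to 41.2 CPM in WT and 27.3 to 31.8 CPM in Fmr1-KO, or 72.4% of WT. The Y-linked genes Ddx3y, Kdm5d and Uty were at 82.3%, 90.2% and 87.4% of WT. Uty overlapped between genotypes and had an edgeR adjusted P of 0.0679. The sex of the pups is not in the labels. All 10 kinase genes are autosomal, but their position does not show the part of sex in the values that follow, which was not tested.

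Of the 10 kinase genes, 9 fell in Fmr1-KO relative to WT and 0 rose at an adjusted P under 0.05 by edgeR, where 21.9% of all genes tested were called lower, 20.7% higher and 42.6% in either direction. DESeq2 also called 9 lower and 0 higher. The remaining gene, Camk2d, also had a log2 fold-change below 0 but did not pass. The median log2 fold-change was -0.40 for the 10 kinase genes and 0.01 for all genes tested. Together the 10 genes held 1080 to 1110 CPM in the WT libraries and 760 to 796 CPM in the Fmr1-KO libraries, which is 70.7% of the WT mean. For 9 genes the 3 Fmr1-KO libraries all lay below the 3 WT libraries, an arrangement found in 26.3% of all genes tested, and 0 kinase genes had the opposite arrangement, found in 25.4%. The kinase genes were chosen with earlier results of these data known, so their contrasts with all genes tested are descriptions only. Bulk counts cannot tell fewer cells of a type from less RNA per cell.

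**Figure D1:**
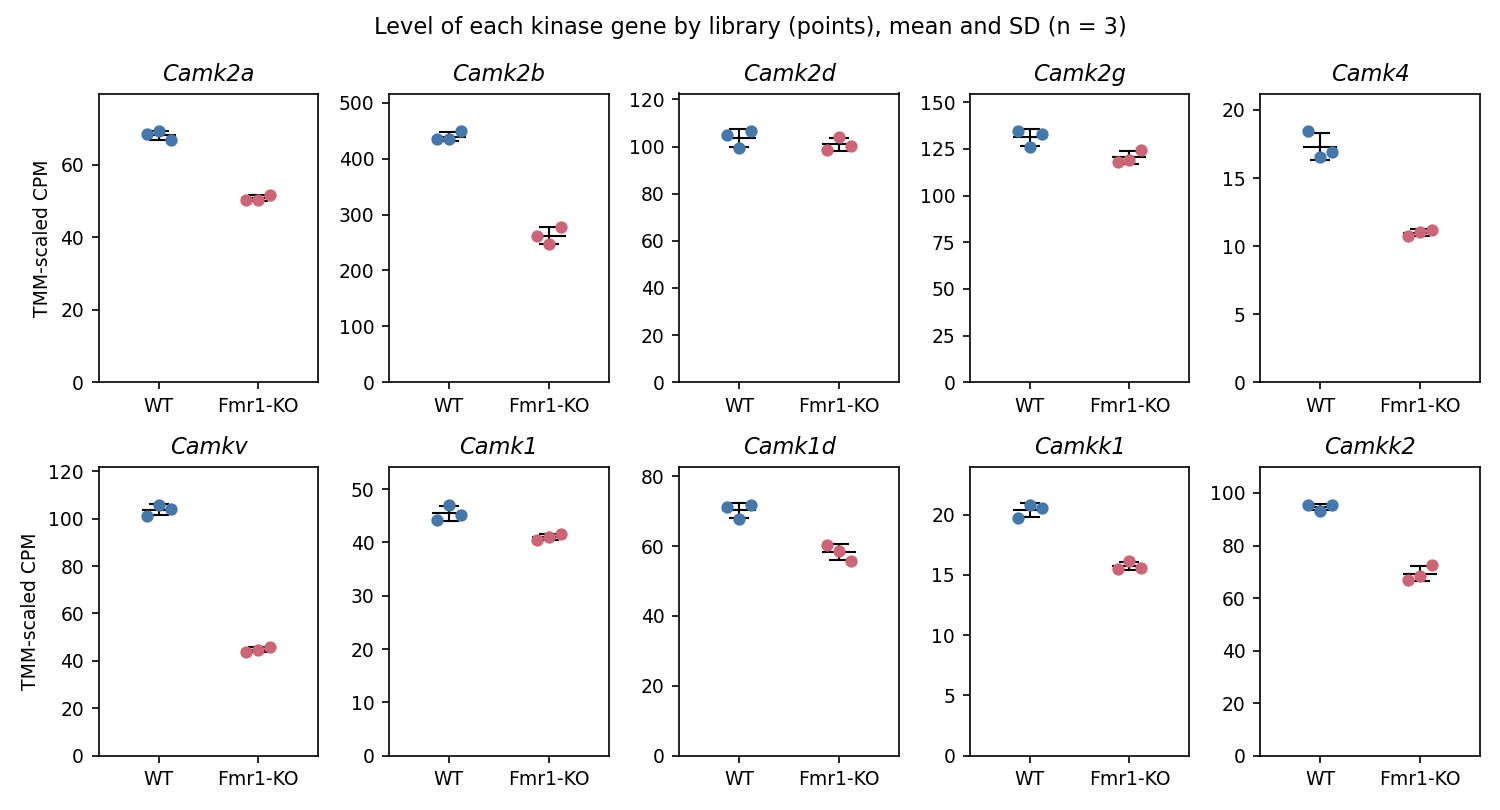
TMM-scaled CPM (y axis, from 0, own scale per gene) of the 10 kinase genes in the 3 WT (blue) and 3 Fmr1-KO (red) libraries, each point a library, with the mean and SD (n = 3) in black. The genotypes are apart in 9 genes, most of all in Camkv, and overlap in Camk2d.

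The 4 CaMKII genes did not move alike. Camk2b encodes the beta isozyme, which binds and bundles actin filaments, and lies on chromosome 11 from 5969644 to 6066362 on the minus strand (GRCm38). It was at 435, 434 and 449 CPM in WT and at 262, 247 and 277 CPM in Fmr1-KO. The highest Fmr1-KO library was far below the lowest WT library, and the mean fell to 59.6% of WT (log2 fold-change -0.75, SE 0.04, adjusted P 6.23e-13 by edgeR).

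Camk2a, on chromosome 18, encodes the alpha isozyme, the form known from mature forebrain excitatory neurons. It was at 68.4, 69.3 and 66.8 CPM in WT and at 50.3, 50.3 and 51.8 CPM in Fmr1-KO. The genotypes were apart, and the level fell to 74.5% of WT (log2 fold-change -0.42, SE 0.04, adjusted P 8.76e-09 by edgeR).

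Camk2g and Camk2d encode the gamma and delta isozymes, which are made in many tissues besides brain. Camk2g (chromosome 14, 20734875 to 20794088, minus strand) was at 134, 126 and 133 CPM in WT and at 118, 119 and 124 CPM in Fmr1-KO. Its groups came close without touching, and the fall to 91.8% of WT was small (log2 fold-change -0.12, SE 0.04, adjusted P 0.00709 by edgeR). Camk2d (chromosome 3, 126596302 to 126846326, plus strand) was at 105, 99.5 and 107 CPM in WT and at 98.7, 104 and 100.4 CPM in Fmr1-KO. These values overlapped, with a log2 fold-change of -0.04 and an SE of 0.04 (edgeR adjusted P 0.429), so that a difference of Camk2d was not detectable against the spread between libraries.

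The stretch of genome just before the transcription start is shown for the 3 genes with a window that holds no annotated exon, since they span the range from the strong fall of Camk2b through Camk1d to Camk2d, which did not pass. Each line gives the 250 bases before the RefSeq start on GRCm38.p6, 5′ to 3′ on the strand of the gene, at chr11:6065749-6065998 (minus), chr3:126596701-126596950 (plus) and chr2:5714763-5715012 (minus). The Camk2b and Camk2d windows lie inside the wider gene bounds of GENCODE, which include starts farther upstream. Capitals mark the GC box GGGCGG or its reverse complement CCGCCC.
Camk2b: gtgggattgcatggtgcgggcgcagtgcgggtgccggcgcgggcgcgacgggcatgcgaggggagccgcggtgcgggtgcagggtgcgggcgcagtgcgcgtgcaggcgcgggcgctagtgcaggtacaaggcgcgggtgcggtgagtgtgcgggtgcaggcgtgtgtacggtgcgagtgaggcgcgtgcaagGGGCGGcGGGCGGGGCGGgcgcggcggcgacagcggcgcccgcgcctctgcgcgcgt
Camk2d: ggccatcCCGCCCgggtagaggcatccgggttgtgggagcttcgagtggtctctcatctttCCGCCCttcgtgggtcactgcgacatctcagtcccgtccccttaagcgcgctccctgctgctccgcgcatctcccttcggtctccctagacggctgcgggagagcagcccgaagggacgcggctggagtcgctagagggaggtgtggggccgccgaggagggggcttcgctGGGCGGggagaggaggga
Camk1d: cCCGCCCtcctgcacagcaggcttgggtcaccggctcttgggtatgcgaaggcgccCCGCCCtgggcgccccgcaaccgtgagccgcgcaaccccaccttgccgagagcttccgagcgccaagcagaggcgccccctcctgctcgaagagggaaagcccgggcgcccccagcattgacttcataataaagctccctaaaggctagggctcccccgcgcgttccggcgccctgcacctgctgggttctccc
The Camk2b window held 3 GC boxes that run together near the start, the Camk2d window held 3 and the Camk1d window shown 2, while 32.7% of 32851 RefSeq windows of this length held at least 1. The GC content of the windows was 78.4%, 68.4% and 69.2%, against a median of 52.4% over all windows. Camk1d has a second RefSeq start, whose window (chr2:5676047-5676296, minus) contains an annotated exon and is not shown. That window had a GC content of 48.4%, below the median, with 1 GC box and 2 E-boxes. A CRE half-site, TGACG on either strand, to which CREB-type factors can bind, was in 17.8% of all windows and in 0 of these 3. Of the 7 kinase genes that had a window, Camk1 and Camkk1 held 1 such half-site each. The windows of Camkv, Camk1, Camkk1 and Camkk2, which contain annotated exons, held 3, 0, 2 and 1 GC boxes. The E-box CANNTG was in 66.2% of all windows and occurred 0, 0 and 1 times in the 3 shown. It occurred 1, 4, 0 and 0 times in the windows of Camkv, Camk1, Camkk1 and Camkk2. The Camk2b and Camk2d windows shown held the same number of GC boxes, and the part of these motifs in the fold-changes was not tested.

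Because the CaMKII holoenzyme mixes isozymes, the make-up of the CaMKII transcripts was computed within each library, as reads per kilobase of each gene in percent of the sum over the 4 genes. A share of this kind does not depend on the scaling between libraries. It is taken from RNA pooled over all cells of a culture and does not give the make-up of the protein. The part of cell types in the shares was not tested. Camk2b made up 57.8%, 58.8% and 58.8% in WT and 49.3%, 47.5% and 49.6% in Fmr1-KO. Camk2g made up 25.5%, 24.3% and 24.8% in WT and 31.6%, 32.6% and 31.7% in Fmr1-KO, although its level in CPM was called lower. Camk2d made up 5.59% ± 0.113 of the sum in WT and 7.65% ± 0.417 in Fmr1-KO (SD, n = 3 per genotype), while its level in CPM did not pass the test. For these 3 genes the genotypes were apart, with an exact 2-sided permutation P of 0.1, the smallest that 3 against 3 libraries allow, and 0.133 after Benjamini-Hochberg adjustment over the 4 shares. The 4 shares of a library are parts of the same sum, so a lower Camk2b share by itself raises the others. The 4 tests are therefore not separate results. The share of Camk2a was 11.1% ± 0.390 in WT and 11.6% ± 0.237 in Fmr1-KO (SD, n = 3 per genotype); its libraries overlapped (exact permutation P 0.2).

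The Camk2a to Camk2b ratio was higher in each Fmr1-KO library than in any WT library. On the log2 scale, per length, it was -2.38, -2.36 and -2.46 in WT and -2.09, -2.01 and -2.13 in Fmr1-KO. The difference was 0.32 (exact 2-sided permutation P 0.1, the smallest possible). Both genes fell in CPM. Shares depend on the length given to each gene. Camk2d has 28 annotated transcripts, whose exons cover 22493 bases in all while the longest transcript has 5524. With the longest transcript in place of all exons, Camk2d made up 10.8% of the sum in WT and 14.7% in Fmr1-KO, and Camk2b 61.1% and 51.0%, with the same order of the genotypes.

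**Figure D2:**
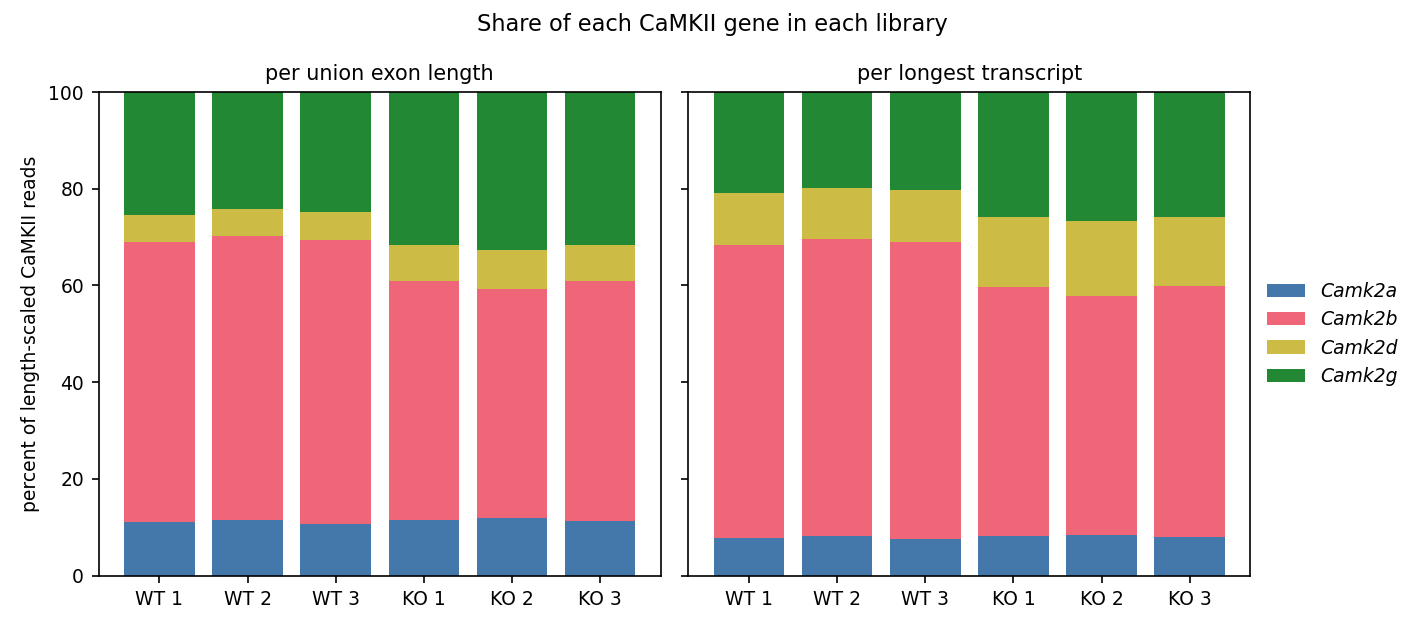
Percent of length-scaled CaMKII reads (y axis) taken by Camk2a, Camk2b, Camk2d and Camk2g in each of the 3 WT and 3 Fmr1-KO libraries (x axis), with lengths from all exons (left) or the longest transcript (right). In both panels the Camk2b part is smaller and the Camk2d and Camk2g parts are larger in every Fmr1-KO library.

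Camkv had the largest fall of the 10 genes. It encodes CaM kinase-like vesicle-associated protein, a pseudokinase that binds calmodulin but is thought not to phosphorylate substrates, and which is needed to keep dendritic spines. The gene lies on chromosome 9 from 107935674 to 107949691 (plus strand, GRCm38). Its level was 101, 106 and 104 CPM in WT and 43.8, 44.6 and 45.8 CPM in Fmr1-KO. The libraries of a genotype were close together, with a coefficient of variation of 2.33% in WT and 2.29% in Fmr1-KO, and the genotypes were 2.32-fold apart (log2 fold-change -1.21, SE 0.04, adjusted P 9.87e-16 by edgeR). This fold-change ranked at percentile 1.28 of all genes tested, counted from the most negative.

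The kinases of the cascade had smaller log2 fold-changes than Camkv. Camkk2 (chromosome 5, 122731170 to 122779409, minus strand), the upstream kinase that also activates AMP-activated protein kinase, was at 95.3, 93.2 and 95.6 CPM in WT and at 66.9, 68.4 and 72.5 CPM in Fmr1-KO. All Fmr1-KO libraries were lower, at 73.2% of WT on average (log2 fold-change -0.45, SE 0.04, adjusted P 3.02e-09 by edgeR). Camkk1 (chromosome 11, 73019008 to 73042073, plus strand), the other upstream kinase, was at 19.8, 20.8 and 20.6 CPM in WT and at 15.5, 16.1 and 15.5 CPM in Fmr1-KO. It fell to 77.2% of WT with no overlap (log2 fold-change -0.37, SE 0.06, adjusted P 2.57e-05 by edgeR).

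Among the kinases activated by them, Camk4, the nuclear kinase on chromosome 18, was at 18.4, 16.5 and 16.9 CPM in WT and at 10.7, 11.0 and 11.2 CPM in Fmr1-KO. The groups were well apart and the mean fell to 63.5% of WT (log2 fold-change -0.66, SE 0.07, adjusted P 9.70e-08 by edgeR). The log2 fold-changes of the CaMKI genes were smaller. Camk1d (chromosome 2, 5293457 to 5714515, minus strand), which encodes the delta form of CaMKI, was at 71.1, 67.7 and 71.9 CPM in WT and at 60.2, 58.6 and 55.8 CPM in Fmr1-KO (log2 fold-change -0.27, SE 0.04, adjusted P 1.18e-05 by edgeR). Camk1 (chromosome 6, 113334124 to 113343984, minus strand), the alpha form, was at 44.3, 47.1 and 45.1 CPM in WT and at 40.5, 41.0 and 41.6 CPM in Fmr1-KO. Neither gene overlapped between genotypes, and Camk1 fell to 90.2% of WT (log2 fold-change -0.15, SE 0.04, adjusted P 0.00712 by edgeR). Requiring a fold change above 1.2 kept 5 of the 10 genes, Camkv, Camk2b, Camk4, Camkk2 and Camk2a, while 7.89% of all genes tested were called lower on that rule.

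**Figure D3:**
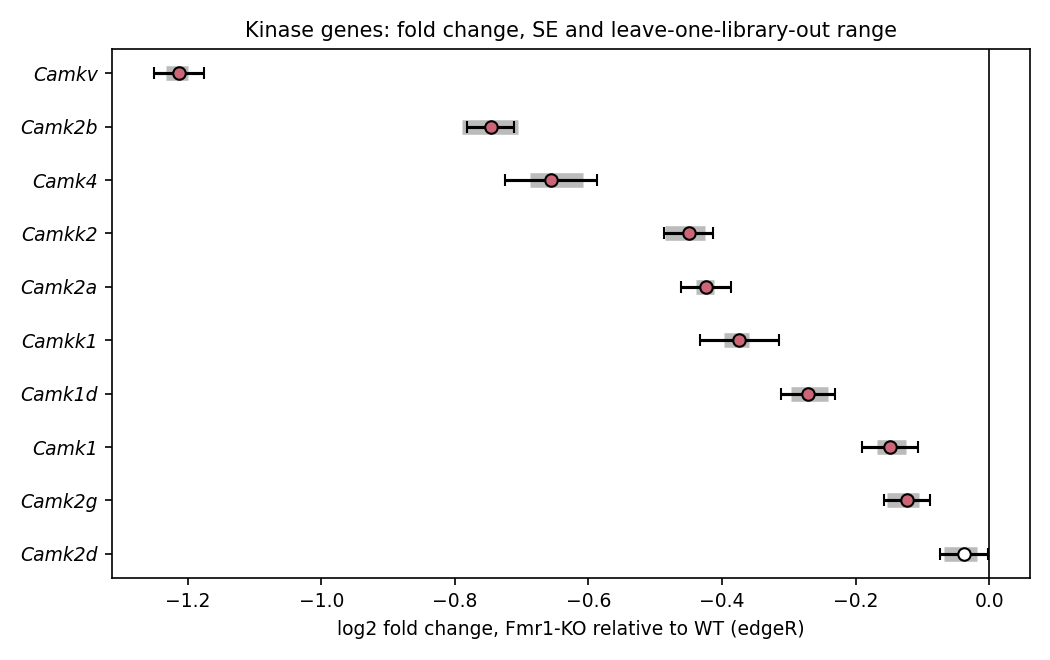
Log2 fold-change of each kinase gene, Fmr1-KO relative to WT (x axis), with its SE as a black bar and, in grey, the range over 6 fits that each left out 1 library. Red points passed an adjusted P of 0.05 by edgeR and the white point, Camk2d, did not; values run from -1.21 for Camkv to -0.04.

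Levels were compared between genes as RPKM, CPM per kilobase of all exons. In WT the order from highest to lowest was Camk2b at 48.2 ± 0.913, Camkv at 27.6 ± 0.642 and Camk2g at 20.5 ± 0.727 RPKM (SD, n = 3). Camk1d and Camk2a followed at 9.45 ± 0.301 and 9.13 ± 0.172 RPKM (SD, n = 3), and these neighbours overlapped. After them came Camkk2 at 8.67, Camk1 at 7.61, Camkk1 at 5.47, Camk4 at 5.31 and Camk2d at 4.61 RPKM, of which only Camkk1 and Camk4 overlapped as neighbours. In Fmr1-KO Camk2b stayed first at 28.7 ± 1.64 RPKM, and Camk2g at 18.8 ± 0.514 lay above Camkv at 11.9 ± 0.272 RPKM (SD, n = 3 each). In Fmr1-KO the only overlapping neighbours were Camk1 at 6.86 and Camk2a at 6.81 RPKM, and Camk4 was lowest at 3.37 RPKM. With the length of the longest transcript, Camk2b was still first (107 RPKM in WT and 63.5 in Fmr1-KO), but Camk2g lay above Camkv in WT as well and Camk2d moved from rank 10 to rank 6 in WT.

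Genes that act with these kinases were read from the same fit, in which 21.9% of all genes tested were called lower and 20.7% higher. Calm2 and Calm3, which encode calmodulin, fell with log2 fold-changes of -0.23 and -0.26. Calmodulin genes have processed copies in the genome, so their split of reads is uncertain. Neurogranin (Nrgn), a postsynaptic protein that holds calmodulin when calcium is low, went from 55.2, 61.3 and 60.0 CPM to 9.16, 7.84 and 9.77 CPM (adjusted P 3.03e-17 by edgeR, SE 0.07, log2 fold-change -2.72). Gap43, its counterpart in growing axons, had a log2 fold-change of -0.97. Of the 5 calmodulin and buffer genes reported here 4 fell, and Pcp4, another small calmodulin-binding protein, did not pass (-0.11).

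The inhibitor genes of CaMKII fell, as did Camk2a, Camk2b and Camk2g, while Camk2d did not pass. Camk2n2 was at 38.4, 41.1 and 43.5 CPM in WT and at 29.7, 28.4 and 31.0 CPM in Fmr1-KO (log2 fold-change -0.46, SE 0.05, adjusted P 3.14e-07 by edgeR), and Camk2n1 fell as well (-0.22, edgeR adjusted P 0.00053). Of the phosphatases that remove the activating phosphate from these kinases, Ppm1e fell (-0.21) and Ppm1f had a log2 fold-change of -0.01 and did not pass. Of 12 further genes of the wider kinase family 5 fell and 1 rose, with a median of -0.11. Across all genes tested 21.9% were called lower, 20.7% higher and 42.6% in either direction. Camk1g, the gamma form of CaMKI, had a log2 fold-change of -0.44 and Pnck, the beta form, -0.17; the call of Pnck was lost without WT replicate 1 or without Fmr1-KO replicate 1 (highest adjusted P 0.0589 by edgeR). Dclk3 (-0.49), Dclk1 (-0.30) and Cask (-0.29), a scaffold with a kinase-like domain, fell while Dclk2, the related doublecortin-like kinase, rose from 372, 362 and 378 CPM to 416, 429 and 433 CPM (log2 fold-change 0.20, SE 0.03, adjusted P 9.14e-06 by edgeR). The median of these 12 genes was -0.07 without WT replicate 2 or without Fmr1-KO replicate 1.

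Among 12 synaptic partners and substrates of CaMKII 10 fell and 0 rose, with a median log2 fold-change of -0.41. The shares over all genes tested were 21.9% lower and 20.7% higher, but this list was chosen with earlier results of these data known. Grin1, the obligatory subunit of the NMDA receptor through which calcium reaches CaMKII, had a log2 fold-change of -0.92, Stx1a, a vesicle fusion protein, -0.90, Grin2a -0.81 and Syn1, a vesicle protein phosphorylated by CaMKII, -0.58. Grin2b, the subunit that docks CaMKII at the synapse, had -0.48. Gria1, an AMPA receptor subunit phosphorylated by CaMKII, had -0.07 and Kalrn 0.02, and neither passed. Of 11 genes of calcineurin, the calcium-dependent phosphatase that opposes the kinases, with its regulators and NFAT targets, 5 fell and 1 rose (median -0.21). The catalytic and regulatory subunits Ppp3ca (-0.37), Ppp3cb (-0.32) and Ppp3r1 (-0.35) fell, whereas the transcription factor Nfatc4 rose from 6.13, 6.56 and 6.83 CPM to 10.5, 11.4 and 9.69 CPM (log2 fold-change 0.69, SE 0.09, adjusted P 1.44e-06 by edgeR). Across fits that left out 1 library, 4 to 6 of the 11 were called lower.

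The lists downstream of the cascade held calls in both directions, as did the whole table, in which 21.9% of genes were called lower and 20.7% higher. Of 13 genes around CREB and the calcium-responsive MEF2 factors 5 fell and 4 rose, with a median log2 fold-change of 0.01. Mef2c, a transcription factor of maturing cortical neurons, went from 453, 446 and 442 CPM to 118, 119 and 127 CPM (adjusted P 1.36e-19 by edgeR, SE 0.03, log2 fold-change -1.88), while Mef2d (-0.25), Hdac5 (-0.17) and Crtc1 (-0.15) fell too. Creb1 was at 95.3, 108 and 91.0 CPM in WT and at 113, 106 and 110 CPM in Fmr1-KO, so its libraries overlapped although it was called higher (log2 fold-change 0.16, adjusted P 0.00967 by edgeR). That call was lost when WT replicate 1 or 3, or else Fmr1-KO replicate 1, was left out (highest adjusted P 0.0790 by edgeR), and 2 of the 13 genes were called higher in each of the 6 fits that left out 1 library. Of 7 tested genes of the AMP-activated protein kinase arm 3 were called lower and 2 higher (median 0.05), the latter a share near that of the whole table. Among its catalytic and regulatory subunits, Prkaa2 (-0.23), Prkag2 (-0.37) and Prkab2 (-0.20) fell and Prkab1 was called higher (0.14), while Prkaa1 had 0.05 and did not pass. The call of Prkab1 was lost in DESeq2 (adjusted P 0.0720) and without WT replicate 1 or 2 or Fmr1-KO replicate 1 or 3 (highest adjusted P 0.145 by edgeR). The number called higher on this arm was 0 without WT replicate 1 and 0 without Fmr1-KO replicate 1, 1 without WT replicate 2 or 3 or without Fmr1-KO replicate 3, and 3 without Fmr1-KO replicate 2, and the median was 0.01 without WT replicate 3.

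**Figure D4:**
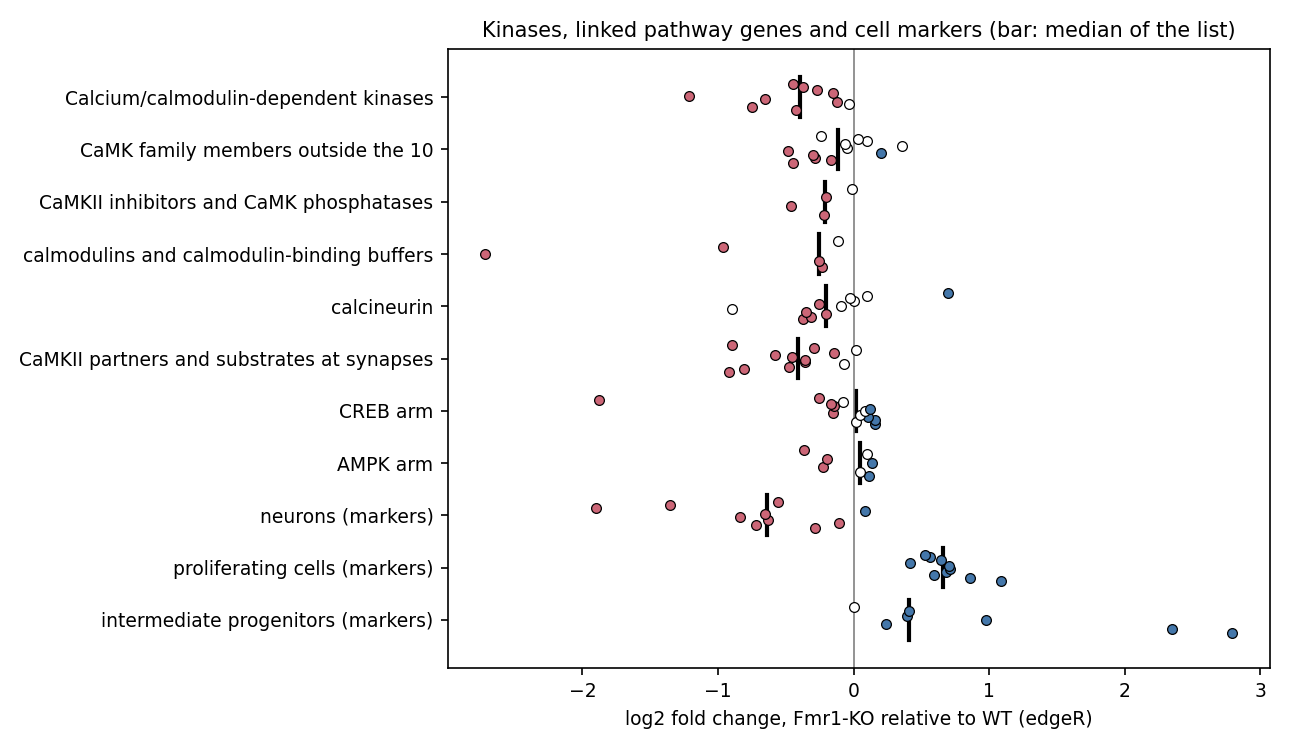
Log2 fold-change, Fmr1-KO relative to WT (x axis), of each tested gene in the kinase group, the 7 linked pathway lists and 3 lists of cell markers (rows); red genes were called lower, blue genes higher and white genes neither by edgeR, and black bars give the median. The kinase, calmodulin and synaptic partner lists lie mostly to the left of 0, whereas the CREB and AMPK lists lie around it.

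The pattern of Camkv over the 6 libraries was most like that of Nefl, Apba1, Plppr4, Dnm1 and Gap43, with a Pearson correlation of at least 0.999 in log2 CPM among 10762 genes of at least 10 CPM. The libraries form 2 genotype clusters that set this value, so it is given as a description only. In that order their log2 fold-changes were -1.90, -0.96, -0.93, -0.80 and -0.97. By the same measure Camk2a (0.996), Camk2b (0.993) and Camkk1 (0.990) were close to Camkv, and Camk2d (0.433) was not.

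Markers of cell type and maturity moved in the same comparison, where 21.9% of all genes tested were called lower and 20.7% higher. Of 10 neuronal markers 9 fell and Dcx, a marker of young neurons, rose (0.08); their median log2 fold-change was -0.64, and their summed level was 4566 to 4668 CPM in WT and 3911 to 4098 CPM in Fmr1-KO, or 86.3% of WT. Excitatory neuron markers were split, with 4 of 10 lower and 5 higher and a summed level of 700.3 to 707 CPM in WT and 685 to 707 CPM in Fmr1-KO; Slc17a7, the vesicular glutamate transporter of mature cells, had a log2 fold-change of -2.45. Of 9 interneuron markers 5 fell and 4 rose, with sums of 755 to 787 CPM and 788 to 866 CPM. All 10 markers of dividing cells rose (578 to 618 CPM in WT, 981 to 1035 CPM in Fmr1-KO), as did 6 of 7 tested markers of intermediate progenitors (262 to 292 and 418 to 454 CPM), while 3 of 8 radial glia markers rose and 0 fell. Astrocyte markers summed to 4944 to 5071 CPM in WT and 4295 to 4666 CPM in Fmr1-KO, so astrocyte transcripts were present after the depletion, with 5 of 8 markers lower and 2 higher. Oligodendrocyte lineage (8 of 8 lower, 1884 to 2046 and 1075 to 1159 CPM), microglia (7 of 8 lower, 165 to 183 and 96.5 to 108 CPM) and endothelial and mural markers (1 of 6 tested lower and 4 higher, 246 to 269 and 409 to 429 CPM) also differed. Of the endothelial and mural sum, Acta2 alone held a mean of 176 CPM in WT and 322 CPM in Fmr1-KO. Erythroid markers summed to no more than 2.46 CPM in any library. No marker had 0 counts in all libraries, and the part of these cell populations in the fall of the kinase genes was not tested.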

How the data were processed

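RNA was sequenced from 3 WT and 3 Fmr1-KO cultures, and genotype and replicate number were read from the sample labels. Raw counts per gene name are what the authors deposited, made from reads trimmed with FastP, aligned to GRCm38.p6 with STAR 2.7.6a and counted over exons with featureCounts (Subread 2.0.1 per the submitters' processing notes), reverse-stranded. The kinase genes and all gene lists were chosen with earlier results of these data known. All genes passing filterByExpr were fitted with edgeR 4.0.16 in R 4.3.3 (TMM, quasi-likelihood test, genotype as the only term, 2-sided, Benjamini-Hochberg adjustment over 16976 genes), with calls at an adjusted P under 0.05; SE is the log2 fold-change over the square root of F. The study used DESeq2, which was run here (1.42.0) as an alternative. Shares and ratios were compared by exact permutation tests (scipy 1.17.1), and lists were described by counts and medians. Exon lengths and gene bounds came from GENCODE M21, which held 98.6% of tested names and no exon of another gene on the same strand within those of the 10 kinases. Promoter windows were RefSeq's. Named genes were the 10 kinases, Fmr1 and the 4 largest called changes of each pathway list. Also named were Calm2, Calm3, the Camk2n genes, Camk1g, Pnck, Nrgn, Creb1, Prkaa1 and Prkaa2. Further names were the 5 genes most like the kinase of largest change, and markers beside a result. Grin2b, Dclk2, Gria1, Kalrn, Ppm1f, Pcp4, Crtc1 and Uty were named after their values were seen. The fit was tested on simulated counts. An item withheld for evaluation is not reported here. Correlations of same-numbered libraries' deviations from the genotype means were -0.151, 0.141 and 0.0687, so replicate numbers were not treated as pairs. Alternatives were DESeq2, other normalizations and filters, removal of the 20 most abundant genes, a replicate block, leaving out each library, a minimum fold change of 1.2 and another gene length.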

Additional observations from a re-analysis of the deposited data

How the results depend on the processing

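Of 150 recomputed log2 fold-changes of single kinase genes, 146 held both sign and call, 4 lost the call and 0 reversed; the 4 were Camk2g, Camk1, Camk1d and Camkk1 with a minimum fold change of 1.2, a stricter test by construction. That rule left 5 kinase genes lower and, across the table, 1340 genes lower and 883 higher. In every other alternative, 9 kinase genes were lower and 0 higher, the replicate block included (3694 genes lower and 3488 higher across the table). In fits without 1 library the highest adjusted P by edgeR was 0.0494 for Camk2g and 0.0365 for Camk1. Across the 6 fits that each left out 1 library, the median of the 10 genes ran from -0.41 to -0.39, and with library totals alone it was -0.37. With the longest transcript as gene length, the CaMKII share of Camk2d was 3.95 points higher and that of Camk2g 5.82 points higher in Fmr1-KO, against 2.05 and 7.13 with all exons; the Camk2a share difference ran from 0.293 (without WT replicate 3) to 0.683 points in fits without 1 library, against 0.493. Of 315 recomputed list values 279 stayed close, 33 moved and 3 reversed, all 3 of the CREB list, whose median ran from -0.0507 to 0.0408 in fits without 1 library and was below 0 without WT replicate 1 (-0.0222) or 3 (-0.00268) and without Fmr1-KO replicate 1; the cause was not tested. With 3 libraries per genotype, no exact test could fall below 0.1.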
